A study of Mus musculus with 6 samples.

Results

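The proteasome genes described here are the genes with a single symbol of the form Psma to Psmg followed by a number in the array annotation. The rule found 48 genes of 12393 in all, and 46 of them encode proteasome subunits, activators, inhibitors or assembly chaperones. They were divided into 18 core genes (Psma and Psmb), 21 genes of the regulatory cap (Psmc and Psmd) and 9 genes of activators and chaperones (Psme, Psmf and Psmg). Psmc3ip, a partner protein of meiotic recombination, and Psme3ip1, a partner of the activator Psme3, matched by spelling alone and were kept in the counts. Psme2 shares its probe set with Psme2b and so did not enter.

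Liver RNA was measured on expression arrays, 1 array per mouse. The 3 injected livers came from wild-type C57 mice that received TFEB by an adenoviral vector. The 3 control livers came from wild-type C57 mice without any injection. All 6 mice were 1 month old. The series title describes overexpression of TFEB specifically in liver, and the labels used here give neither the promoter of the vector nor the time between injection and harvest. No group received an empty vector, so injection, vector and TFEB cannot be told apart.

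The proteasome is the main protease of the cytosol and nucleus. Its core is a stack of rings in which alpha subunits form the gate and beta subunits hold the cutting sites, and its regulatory cap binds ubiquitin-tagged proteins, unfolds them with ATPases and feeds them into the core. In most cells the transcription factor Nfe2l1 raises proteasome genes together when proteasome activity is short, whereas TFEB is known for lysosomal and autophagy genes, the other main route of protein breakdown. Interferon gamma exchanges the catalytic beta subunits for inducible ones that favour peptides for MHC class I.

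The only probe set of Tfeb read 7.50, 7.59 and 7.47 in the livers that were not injected and 7.48, 7.78 and 7.46 in the injected livers, on the log2 scale of the deposited values. The groups overlapped (difference 0.05, two-sided exact permutation p = 0.9, smallest possible 0.1), and because the sequence of the transgene is not given, this value does not check the labels. The hepatocyte markers measured, 6 of the 8 listed, had a summed level of 17.26 to 17.27 in the control livers and of 17.22 to 17.25 in the injected livers, and limma called 0 of them (1 at an unadjusted p under 0.05). Spike-in controls read lower in the injected livers, with a median difference of -0.32 over 18 hybridisation probe sets and -0.44 over 24 poly-A probe sets. Every injected array was below every control array in 18 and 23 of them. The labels name no labelling or hybridisation batch, and one that coincided with injection cannot be told apart from it. All values below are log2 expression values of 1 probe set per gene, the brightest. Differences are injected minus not-injected means with the standard error of the limma fit, and a gene was called at a Benjamini-Hochberg adjusted p under 0.05 over all 12393 genes.

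Proteasome genes differed little between the injected and the not-injected livers. Of the 48 genes 8 were called (16.7%), 2 higher and 6 lower, where 28.1% of all genes were called, 14.2% higher and 13.9% lower. The median difference over the members was -0.08, and over all genes it was -0.05. The median absolute difference was 0.12 for the members and 0.16 for all genes. In 47 of the 48 genes the 95% interval of the difference lay within 1.5-fold in either direction, which held for 78.1% of all genes. Psmd8 was the exception. The groups did not overlap in 23 of the 48 members (47.9%) and in 46.2% of all genes, so the total was near the background. Every injected liver was below every control in 18 members (37.5%) and in 26.1% of all genes, and above in 5 members (10.4%) and in 20.1% of all genes. The difference between these shares was not tested.

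Most members were measured at a high signal, with 46 of 48 at or above the median level of all genes. Among the 6197 genes at that level 40.2% were called and 70.6% had an interval within 1.5-fold, against 17.4% and 97.8% of the 46 members. The number of members called, like that of all genes, depended on single arrays and on the scaling. It was 10 (20.8%, against 35.3% of all genes) when injected replicate 2 was left out. It was 5 (10.4%, against 21.8%) without the first control liver and 4 (8.33%, against 19.0%) without injected replicate 3. It was 2 (4.17%, against 15.9% to 17.0%) when any of the other 3 livers was left out. Psmd8, Psmd10, Psmb3, Psmc5 and Psma4 were not called without variance moderation (limma adjusted p 0.0551 to 0.0836). After each array was centred on the median of its genes 2 members were higher and 11 lower, and over all genes that scaling gave 1435 higher and 2554 lower against 1765 and 1721 without it. The median of the spike-ins lay in the same direction as the member median. The array medians over genes lay the other way, on average 0.07 higher in the injected livers. The part of either in the small falls was not tested.

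**Figure D1:**
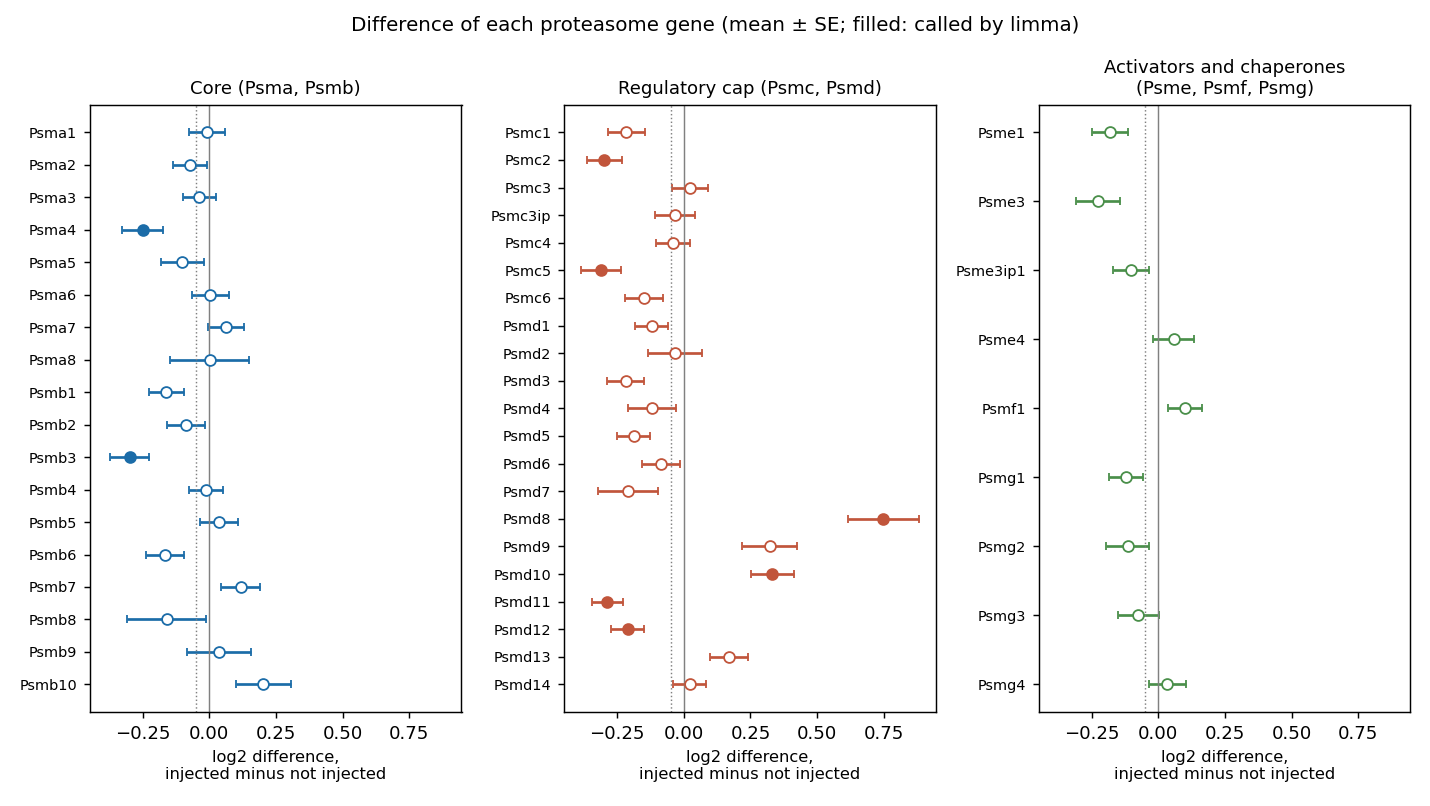
Difference in log2 expression between injected and not-injected livers for each of the 48 proteasome genes, in 3 panels by the part of the particle. Points are differences with the standard error of the limma fit, filled where called; the solid line is 0 and the dotted line the median of all genes at -0.05. Psmd8 stands at 0.75, and all other genes lie between -0.31 and 0.33.

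**Figure D2:**
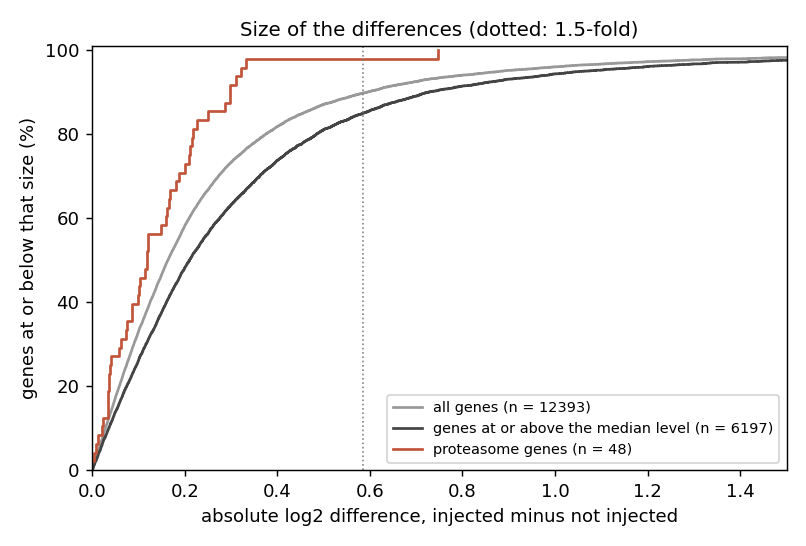
Share of genes (y axis, percent) whose absolute log2 difference is at or below the value on the x axis, for all 12393 genes, the 6197 genes at or above the median level and the 48 proteasome genes. The median of the absolute difference is 0.12 for the proteasome genes and 0.16 for all genes, and 1 proteasome gene lies beyond the dotted line at 1.5-fold.

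In the alpha ring, which gates entry to the core, 1 of 8 genes fell and 0 rose (12.5% called, against 28.1% of all genes). Psma4 read 11.998, 11.87 and 11.86 without injection and 11.74, 11.67 and 11.57 with it. Every injected liver was below every control, and Psma4 fell by 0.25 ± 0.08 (SE; limma adjusted p = 0.0432). That call was lost when any of the 6 arrays was left out, with adjusted p-values of 0.054 to 0.128.

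The other alpha subunits were not called. Psma2 read 11.75, 11.75 and 11.72 without injection and 11.71, 11.70 and 11.59 with it, a difference of -0.07 ± 0.06 that was not called although the groups did not overlap. Psma7 read 11.27, 11.11 and 11.18 in controls and 11.25, 11.29 and 11.21 in injected livers, and the groups overlapped. The other probe set of Psma7 read -0.16, with every injected liver below every control, and was not called. Psma5 read 11.93, 11.95 and 11.96 in controls and 11.77, 12.003 and 11.76 with injection, with injected replicate 2 above every control. The remaining alpha genes were Psma1 (-0.01), Psma3 (-0.04), Psma6 (0.00) and Psma8 (0.00). The other probe sets of Psma6 read -0.12, -0.10 and 0.05, none called, and in the first the groups did not overlap. Psma8, known as a testis form of the alpha ring, read 5.47 to 6.06, close to the lower quartile of the arrays (5.46 to 5.56).

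Of the 7 constitutive beta genes 1 fell and 0 rose (14.3% called, against 28.1% of all genes). Psmb3, a beta subunit without a cutting site, read 12.06, 12.09 and 11.95 in controls and 11.65, 11.82 and 11.73 in injected livers. The groups were apart, the fall was 0.30 ± 0.07 (limma adjusted p = 0.0224), and the other probe set of Psmb3 read -0.29 and was also called. Without not-injected replicate 1 or 2 or injected replicate 1 or 3 the adjusted p of Psmb3 was 0.0631 to 0.0833. Psmb1, also without a cutting site in mammals, read 11.94, 11.90 and 11.87 against 11.74, 11.81 and 11.67 after injection, groups that did not overlap, but its difference of -0.16 ± 0.07 was not called. Psmb2 (-0.09) and Psmb4 (-0.01) were not called.

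The 3 constitutive catalytic subunits were not called. Psmb5, the chymotrypsin-like subunit, read 11.30, 11.23 and 11.17 without injection and 11.22, 11.22 and 11.37 with it. Psmb6, the caspase-like subunit, read 11.61, 11.63 and 11.51 in controls and 11.35, 11.50 and 11.41 in injected livers, which lay just below. Psmb7, the trypsin-like subunit, read 9.65, 9.53 and 9.52 in controls and 9.64, 9.77 and 9.64 in injected livers. Their differences were 0.04 ± 0.07, -0.17 ± 0.07 and 0.12 ± 0.07, and the 95% intervals ran from -0.13 to 0.20, from -0.33 to -0.0013 and from -0.05 to 0.29.

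Of the 3 interferon-inducible subunits that replace them limma called 0 (against 28.1% of all genes), and 0 had an unadjusted p under 0.05. Psmb8, which takes the place of Psmb5, read 9.86, 9.54 and 9.52 in controls and 9.46, 9.75 and 9.23 in injected livers. Psmb9, which takes the place of Psmb6, read 9.44, 9.20 and 9.15 in controls and 9.33, 9.48 and 9.09 with injection. Psmb10, which takes the place of Psmb7, read 9.96, 9.68 and 9.64 in controls and 9.91, 10.09 and 9.90 in injected livers. In all 3 genes not-injected replicate 1 was the highest control, injected replicate 2 was the highest injected liver, and the groups overlapped. The differences were -0.16 ± 0.15, 0.04 ± 0.12 and 0.20 ± 0.10 (limma adjusted p = 0.454, 0.844 and 0.182), and the 95% interval of Psmb8, the widest, ran from -0.50 to 0.19.

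Taken within each array, the difference between an inducible subunit and its constitutive counterpart changed by -0.20 for Psmb8 minus Psmb5, by 0.20 for Psmb9 minus Psmb6 and by 0.08 for Psmb10 minus Psmb7. The two-sided exact permutation p-values were 0.4, 0.2 and 0.3, where 0.1 is the smallest that 3 against 3 arrays allow, and all 3 were 0.4 after Benjamini-Hochberg adjustment over the 3 pairs. The first of these was -0.02 without injected replicate 3 and -0.36 without injected replicate 2. Such a within-array difference bears on unequal change of the 2 genes and not on their relative amounts.

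**Figure D3:**
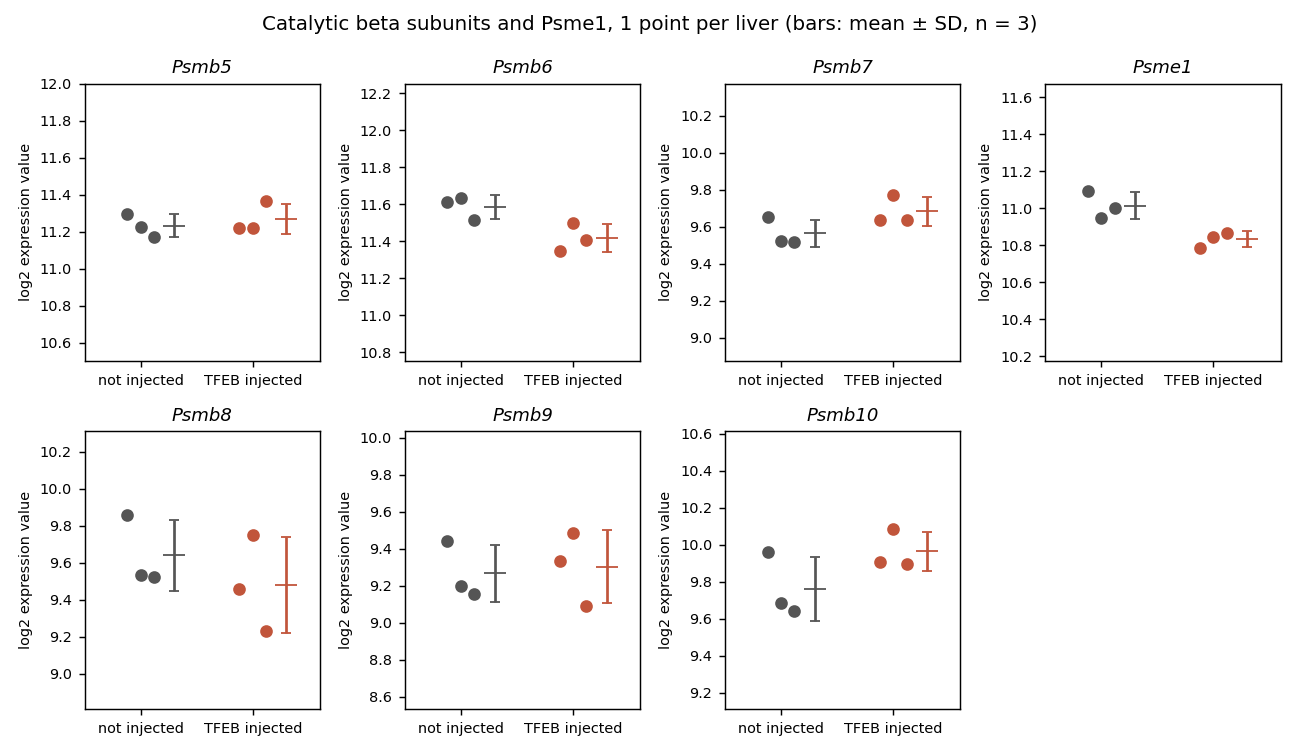
Log2 expression values of the constitutive catalytic subunits Psmb5, Psmb6 and Psmb7, the activator Psme1, and the inducible subunits Psmb8, Psmb9 and Psmb10, 1 point per liver, with the mean and SD of each group (n = 3). Each axis spans the same range on the log2 scale. The groups overlap in Psmb8, Psmb9 and Psmb10, and not in Psmb6 and Psme1.

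Inducible subunits are also abundant in leukocytes, and in whole liver fewer cells of a type and less RNA per cell cannot be told apart. Of the listed T cell markers 5 of 7 were measured and 0 were called (1 at an unadjusted p under 0.05), with a summed level of 8.99 to 9.03 in controls and 8.86 to 8.95 in injected livers. Of 4 measured B cell markers 1 was called, the immunoglobulin gene Ighm (-1.90), and the summed level was 10.61 to 10.73 in controls and 8.87 to 9.95 in injected livers. Ighm is by far the brightest of these probe sets in the sum, and the other B cell markers read 0.40 (Ms4a1), 0.39 (Cd79b) and -0.09 (Cd79a), none called, with a median of 0.15 over the 4. Of 6 NK and cytotoxic markers 1 was higher, and the summed level was 8.30 to 8.40 in controls and 8.25 to 8.58 in injected livers. Of 11 macrophage markers 3 were higher and 2 lower, with a summed level of 13.27 to 13.66 in controls and 13.64 to 13.85 in injected livers. Of 3 neutrophil markers 1 was higher, with 7.37 to 7.66 in controls and 7.60 to 8.53 in injected livers. Of 5 markers of sinusoidal endothelium 4 were higher, with 11.42 to 11.61 in controls and 12.03 to 12.29 in injected livers. Of 4 bile duct and 4 stellate cell markers 0 were called (2 and 0 at an unadjusted p under 0.05), with summed levels that overlapped. The part of these cells in the proteasome values was not tested.

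The regulatory cap held 6 of the 8 called members, 2 higher and 4 lower of 21 genes (28.6% called, against 28.1% of all genes). Its median difference was -0.12, and that of the core was -0.03 with 2 of 18 genes called (11.1%). The difference between the 2 parts was not tested.

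Psmd8 had the largest difference of all members. It encodes a subunit of the cap's lid, the part that strips ubiquitin chains. It read 11.35, 11.23 and 11.20 without injection and 12.13, 11.69 and 12.20 with it. Every injected liver was above every control, and injected replicate 2 was the lowest of the 3. Psmd8 rose 1.68-fold (0.75 ± 0.13, limma adjusted p = 0.00668), and its 95% interval ran from 0.44 to 1.06. It kept its call without any 1 of the 6 arrays (0.65 to 0.91) and lost it without variance moderation (adjusted p = 0.0597). It is represented by 1 probe set.

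Of the 11 non-ATPase genes of the cap, Psmd8 among them, 1 rose and 2 fell (27.3% called, against 28.1% of all genes). Psmd11, known for clamping the cap to the core, read 12.42, 12.42 and 12.45 without injection and 12.16, 12.10 and 12.17 with it. The groups were far apart for their spread, and Psmd11 fell by 0.29 ± 0.06 (limma adjusted p = 0.0114, and 0.0506 without not-injected replicate 3). Of its 6 probe sets 3 were called, all lower (-0.29, -0.33 and -0.45), and the other 3 read -0.01 to -0.29. Psmd12 read 10.98, 10.93 and 10.89 in controls and 10.67, 10.76 and 10.73 in injected livers. It fell by 0.21 ± 0.06 (limma adjusted p = 0.0425), and the adjusted p was 0.0891 to 0.131 when any array but injected replicate 2 was left out and 0.0788 with replicate number as a block.

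Psmd3, a lid scaffold subunit, read 9.32, 9.20 and 9.27 in controls and 8.98, 9.13 and 9.02 in injected livers. These groups did not overlap, and the difference of -0.22 ± 0.07 just missed the threshold (limma adjusted p = 0.0553). It passed in 6 alternatives, among them centring (0.0309), a second quantile normalisation (0.0285) and leaving out injected replicate 2 (0.0256). Centring by its construction takes 0.07 from every difference. The other non-ATPase genes were not called. Their differences were -0.21 for Psmd7, -0.12 for Psmd1, -0.12 for the ubiquitin receptor Psmd4, -0.09 for Psmd6, -0.03 for the scaffold Psmd2, 0.02 for the deubiquitinase Psmd14 and 0.17 for Psmd13. Psmd2 and Psmd4 read 11.24 and 11.47 in injected replicate 3, the highest of all 6 livers, and 10.87 to 10.91 and 11.18 to 11.21 in the other injected livers, which were below every control.

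Of the 6 ATPases, which form the ring that unfolds substrates, 2 fell and 0 rose (33.3% called, against 28.1% of all genes). Psmc2 read 12.13, 12.10 and 12.08 without injection and 11.74, 11.89 and 11.78 with it. It fell by 0.30 ± 0.07 (limma adjusted p = 0.0148), and its other probe set was also lower (-0.23). Psmc5 read 10.63, 10.72 and 10.65 in controls and 10.30, 10.29 and 10.47 in injected livers. It fell by 0.31 ± 0.07 (limma adjusted p = 0.0196), the largest fall among the members. Both genes were apart between the groups and lost their calls without not-injected replicate 2, not-injected replicate 3 or injected replicate 1, with adjusted p-values of 0.0503 to 0.075.

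Psmc1 read 10.97, 10.95 and 10.85 in controls and 10.66, 10.79 and 10.67 in injected livers. The groups did not overlap, and its difference of -0.22 ± 0.07 was not called (limma adjusted p = 0.0568). Psmc1 passed in some alternatives, among them array weights (limma adjusted p = 0.0322) and a second quantile normalisation (0.0394). It did not pass averaged over its probe sets (0.184) or with replicate number as a block (0.074). Psmc6 depended on the probe set. Its brightest one read 11.25, 11.20 and 11.13 in controls and 11.01, 11.13 and 10.99 with injection and was not called (-0.15 ± 0.07), whereas the other 2 were lower and called (-0.39 and -0.51). Averaged over its probe sets, Psmc6 was lower by the call rule (-0.35, limma adjusted p = 0.0187). Psmc3 (0.02) and Psmc4 (-0.04) were not called. The dimmer probe set of Psmc4 read -0.20, with every injected liver below every control, and was not called.

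**Figure D4:**
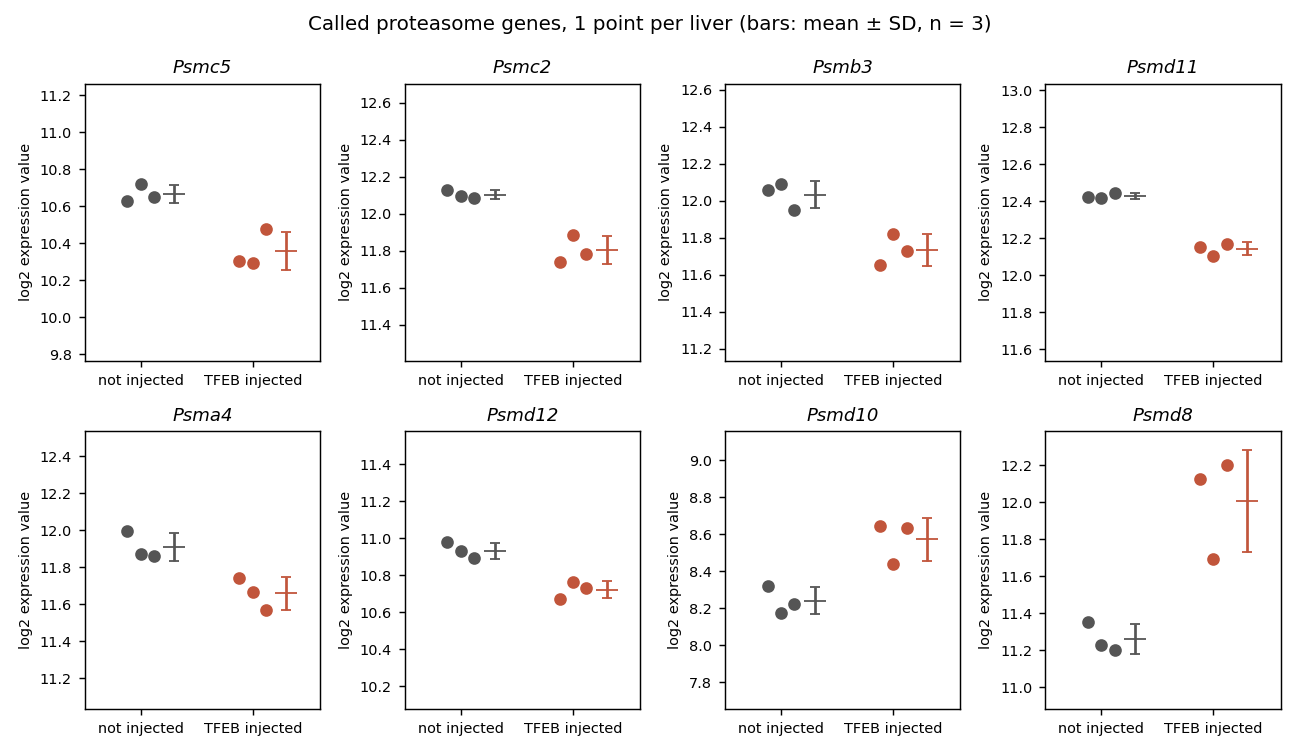
Log2 expression values of the 8 called proteasome genes, 1 point per liver, with the mean and SD of each group (n = 3), ordered from the largest fall to the largest rise. Each axis spans the same range on the log2 scale. In all 8 genes the injected and not-injected livers do not overlap, as in 46.2% of all genes. The 8 genes were chosen by a call between these same livers.

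Of the 7 assembly chaperones 1 rose and 0 fell (14.3% called, against 28.1% of all genes). Psmd10, also called gankyrin, escorts an ATPase into the base of the cap. It read 8.32, 8.18 and 8.22 without injection and 8.64, 8.44 and 8.63 with it. The groups were apart, and Psmd10 rose by 0.33 ± 0.08 (limma adjusted p = 0.0213). Its adjusted p was 0.0702 to 0.0802 without not-injected replicate 2 or 3 or injected replicate 1 or 3. Psmd9, a chaperone of the same base, read 9.35, 9.25 and 9.26 in controls and 9.48, 9.84 and 9.51 in injected livers. Its difference of 0.32 ± 0.10 missed the threshold (limma adjusted p = 0.0539), and its dimmer probe set read -0.08. Psmd9 passed in some alternatives, among them array weights (limma adjusted p = 0.0331). It did not pass after centring (0.12) or averaged over its probe sets (0.479).

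Psmd5, the other base chaperone, pointed the other way. It read 9.25, 9.19 and 9.23 in controls and 9.03, 8.99 and 9.09 in injected livers, groups that did not overlap (-0.19 ± 0.06, limma adjusted p = 0.0576). It passed after centring, with array weights and in 4 further alternatives (adjusted p 0.0186 to 0.0465 over the 6). Centring lowers every difference by 0.07. Psmg1, whose product helps to build the alpha ring, read 10.07, 10.18 and 10.15 in controls and 9.97, 10.06 and 10.01 in injected livers (-0.12 ± 0.06, not called). Psmg2 (-0.11), Psmg3 (-0.08) and Psmg4 (0.03) were not called. Neither were the spelling matches Psmc3ip (-0.03) and Psme3ip1 (-0.10).

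Of the 4 activator and inhibitor genes limma called 0 by the brightest probe set, against 28.1% of all genes. Of these 4 genes, 2 had an unadjusted p under 0.05. The groups did not overlap in 3 of 4 (46.2% of all genes), with Psme1 and Psme3 below in every injected liver and Psmf1 above. Psme1, a subunit of the interferon-inducible activator, read 11.09, 10.95 and 11.003 without injection and 10.79, 10.84 and 10.87 with it (-0.18 ± 0.07, limma adjusted p = 0.0817). Psme3, which forms a nuclear activator, read 8.43, 8.34 and 8.25 in controls and 8.03, 8.23 and 8.09 in injected livers (-0.23 ± 0.08, limma adjusted p = 0.0749). Both passed after centring (adjusted p = 0.0339 and 0.0423), which by its construction takes 0.07 from every difference. They also passed after a second quantile normalisation (0.0463 and 0.0408) and not with replicate number as a block (0.1265 and 0.1019). Averaged over its probe sets, Psme3 was -0.09 and not called. Psme4 read 11.64, 11.76 and 11.69 in controls and 11.76, 11.64 and 11.86 in injected livers, which overlapped. Its dimmer probe sets read 0.08 and 0.29, neither called, and in the latter every injected liver was above every control.

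Psmf1, which encodes an inhibitor of the core, gave the widest disagreement between probe sets. The brightest one read 8.75, 8.70 and 8.73 in controls and 8.79, 8.90 and 8.79 in injected livers and was not called (0.10 ± 0.06). Of the other 3, 1 read 7.03, 7.11 and 7.19 in controls and 7.86, 7.70 and 7.67 in injected livers, and another read 7.36, 7.42 and 7.47 against 8.22, 8.03 and 7.97. These 2 rose by 0.64 ± 0.08 and 0.65 ± 0.08 (limma adjusted p = 0.00168 and 0.00169 over all probe sets), and the last read 0.02. Averaged over its 4 probe sets, Psmf1 was higher by the call rule (0.35, limma adjusted p = 0.00662). Of the 21 members with more than 1 probe set, the probe sets differed in call in 5 (Psma1, Psma5, Psmc6, Psmd11 and Psmf1) and in 0 they were called in opposite directions.

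Within a group, the members often had their highest value in the same liver. Not-injected replicate 1 was the highest of the 3 controls in 34 of 48 members (70.8%), against 35.7% of all genes. Injected replicate 2 was the highest injected liver in 30 of 48 members (62.5%), against 41.9% of all genes. The median deviation of the members from their own mean over 6 arrays was 0.08, 0.03 and 0.01 in the controls and -0.07, 0.01 and -0.04 in the injected livers. The member medians of injected replicate 2 and not-injected replicate 3 were thus nearly equal. This is a description over genes that share arrays, and it was noticed in these data.

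Promoter sequence was available in the RefSeq promoter table (GRCm38.p6) for 40 of the 48 members, in 43 windows from 250 bases before to 50 bases after a transcript start. The E-box CACGTG, the centre of the element that TFEB binds, occurred on either strand in 5 of 43 windows (11.6%) and in 7.15% of all 32851 windows. The longer TCACGTGA, which contains it, occurred in 1 window (2.33%), that of Psme3ip1, and in 0.974% of all. TGACNNNGC, the core of the antioxidant response element that Nfe2l1 and Nfe2l2 bind, occurred in 6 windows (14.0%) and in 12.4% of all. CCAAT occurred in 15 windows (34.9%) and in 37.4% of all. Of the called members with a window, Psma4 held the E-box, Psmd12 held TGACNNNGC, and Psmb3, Psmc2 and Psmd10 held CCAAT. A match is a run of letters and not a bound site.

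The 250 bases before the start are shown for 4 called members, from 5′ to 3′ on the gene's strand, with the searched motifs in capitals. Psmd8 is the member with the largest rise (chr7:29180674-29180923, minus strand, no match), and Psmd10 the other called rise (chrX:140956712-140956961, minus strand, 3 matches to CCAAT). Psma4 is the called fall with an E-box (chr9:54950609-54950858, plus strand, 140 bases before the start), and Psmd12 the called fall with TGACNNNGC read on the opposite strand (chr11:107479278-107479527, plus strand, 247 bases before the start).
Psmd8: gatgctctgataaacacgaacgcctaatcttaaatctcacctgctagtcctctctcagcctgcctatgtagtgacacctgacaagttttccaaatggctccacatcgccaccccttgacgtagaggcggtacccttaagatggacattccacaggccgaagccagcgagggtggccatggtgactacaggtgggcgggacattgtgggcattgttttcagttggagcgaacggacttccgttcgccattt
Psmd10: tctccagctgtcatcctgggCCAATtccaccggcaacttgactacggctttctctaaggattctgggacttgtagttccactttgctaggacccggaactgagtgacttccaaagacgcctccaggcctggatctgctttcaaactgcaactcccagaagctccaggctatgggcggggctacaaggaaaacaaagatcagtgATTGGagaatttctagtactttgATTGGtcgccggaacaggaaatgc
Psma4: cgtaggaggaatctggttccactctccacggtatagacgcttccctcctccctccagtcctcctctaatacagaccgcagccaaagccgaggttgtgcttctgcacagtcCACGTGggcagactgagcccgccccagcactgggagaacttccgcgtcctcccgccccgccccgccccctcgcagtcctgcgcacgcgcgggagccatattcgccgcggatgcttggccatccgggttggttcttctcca
Psmd12: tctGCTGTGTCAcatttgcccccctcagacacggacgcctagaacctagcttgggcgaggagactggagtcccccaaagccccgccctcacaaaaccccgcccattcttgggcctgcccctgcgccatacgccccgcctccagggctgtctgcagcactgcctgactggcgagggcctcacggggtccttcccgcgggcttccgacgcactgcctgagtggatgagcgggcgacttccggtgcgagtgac

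Lists of genes around the proteasome were read in the same way, against the 28.1% of all genes called. The share called was 26.7% among regulators of proteasome genes, 35.7% among proteasome partners, 23.1% in the p97 list, 10% in COP9, 19.0% among cytosolic chaperones, 36.4% in class I processing and 31.2% in the interferon gamma response, and 2 of 4 ubiquitin and E1 genes were called. Among regulators of proteasome genes 3 of 15 rose and 1 fell, with a median of 0.03. Nfe2l1 itself rose by 0.33 ± 0.07 (limma adjusted p = 0.0136), from 8.76, 8.75 and 8.70 to 9.13, 8.96 and 9.12. Its adjusted p was 0.0568 without not-injected replicate 3 and 0.0519 without injected replicate 1. The small Maf partner Maff rose by 0.75 ± 0.10, and Syvn1, a ubiquitin ligase of the endoplasmic reticulum, fell by 0.39 ± 0.10 (limma adjusted p = 0.00224 and 0.0227). Syvn1 was not called without variance moderation or without not-injected replicate 2, not-injected replicate 3 or injected replicate 1 (adjusted p 0.0628 to 0.0867).

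Of 14 proteasome partners outside the symbol pattern 2 rose and 3 fell, with a median of -0.09. The shuttle factors Rad23b and Ubqln1, which carry ubiquitin-tagged proteins to the cap, fell by 0.60 ± 0.07 and 0.33 ± 0.07 (limma adjusted p = 0.0014 and 0.0102). Zfand2a, a stress-inducible partner of the cap, read 7.81, 8.03 and 8.12 in controls and 10.75, 8.82 and 10.63 in injected livers, a rise of 2.08 ± 0.47 (limma adjusted p = 0.0157). Injected replicate 2 was again the lowest injected liver, and without not-injected replicate 1 or 2 or injected replicate 1 or 3 the adjusted p was 0.0512 to 0.0549, and it was 0.104 without variance moderation.

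Of 13 genes of the p97 unfoldase and its cofactors 1 rose and 2 fell, with a median of -0.13. Derl2, a channel component of the endoplasmic reticulum, fell by 0.46 ± 0.06, Ubxn4 fell by 0.28 ± 0.07 and the ubiquitin chain elongator Ube4b rose by 0.41 ± 0.08 (limma adjusted p = 0.00235, 0.0298 and 0.00792). Averaged over its probe sets Ube4b was 0.24, still called. Ubxn4 lost its call in 5 alternatives (adjusted p 0.0679 to 0.086). Of the 12 ubiquitin and E1 genes listed only 4 had a probe set of their own symbol, and 2 rose. These were Sae1 of the SUMO-activating enzyme (0.66 ± 0.08) and Uba3 of the NEDD8-activating enzyme (0.32 ± 0.07; limma adjusted p = 0.00132 and 0.016). Sae1 was 0.24 averaged over its 3 probe sets, still called. Uba3 missed the threshold without not-injected replicate 2, not-injected replicate 3 or injected replicate 1 (adjusted p 0.0567 to 0.063).

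The COP9 signalosome, a complex built like the lid of the cap, had 10 measured genes. Of these 1 fell and 0 rose, the median was -0.04, and Cops3 fell by 0.22 ± 0.06 (limma adjusted p = 0.0392). Cops3 lost that call with replicate number as a block (0.0685) and when any array but injected replicate 2 was left out (0.0887 to 0.117). Among 21 cytosolic chaperones 1 rose and 3 fell, with a median of -0.05. The small heat shock protein gene Hspb1 rose by 2.27 ± 0.25, and the co-chaperones Stip1 and Bag1 fell by 0.47 ± 0.07 and 0.36 ± 0.07 (limma adjusted p = 0.00102, 0.00294 and 0.0114).

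The inducible proteasome supplies peptides to MHC class I. Of 11 genes of MHC class I antigen processing 3 rose and 1 fell, with a median of 0.07. The class I heavy chains H2-D1 and H2-K1 rose by 0.61 ± 0.09 and 0.39 ± 0.06, and the loading factor Pdia3 fell by 0.25 ± 0.06 (limma adjusted p = 0.00327, 0.00481 and 0.0226). H2-D1, read from 1 of 9 probe sets, was 0.28 averaged over them, still called. Both heavy chains are read from probe sets with an x suffix, which can match related transcripts. Whether the 2 rises are separate cannot be told from them. Pdia3 lost its call without any 1 of the controls or injected replicate 3 (adjusted p 0.0563 to 0.0751). Of 16 interferon gamma response genes 1 rose and 4 fell, with a median of -0.17. The receptor chain Ifngr2 rose by 0.84 ± 0.11, and Irf9 and the GTPase Irgm1 fell by 0.53 ± 0.07 and 0.62 ± 0.10 (limma adjusted p = 0.00174, 0.00193 and 0.00492). Without injected replicate 2, 9 of these 16 genes and 35.3% of all genes were called.

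**Figure D5:**
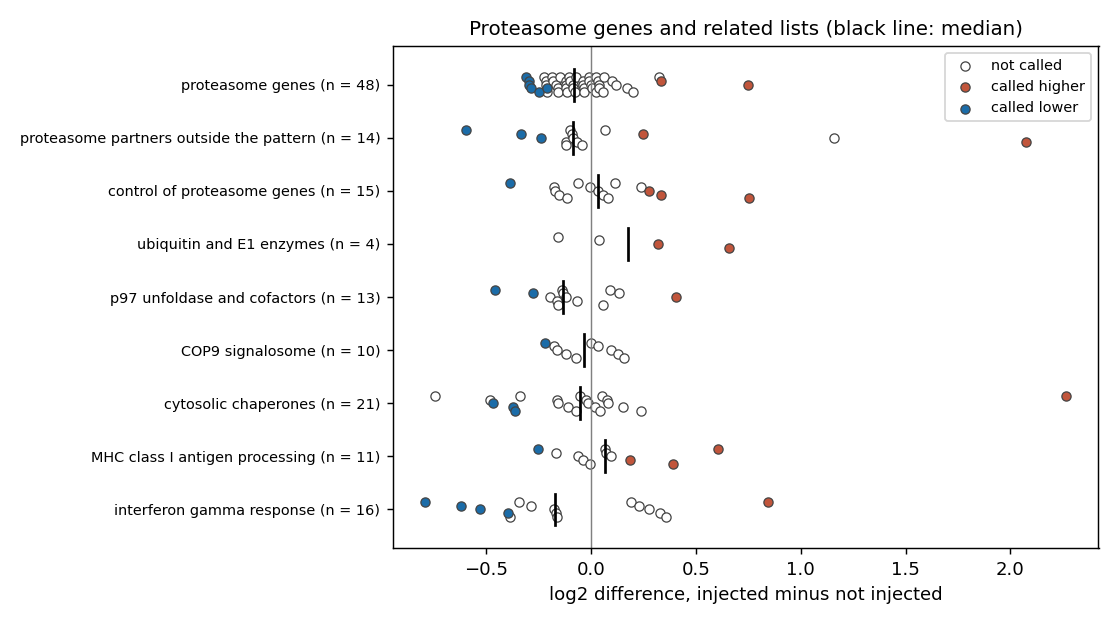
Log2 difference (x axis) of each gene of the proteasome and of 8 related lists (y axis), with filled points for genes called higher or lower and a black line at the median of each list. The proteasome genes lie between -0.31 and 0.75, and Zfand2a at 2.08 and Hspb1 at 2.27 are the largest rises in the other lists.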

How the data were processed

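The authors deposited 1 table of log2 expression values, 1 value for each probe set and array, with affy and RMA named in the submitters' processing notes without a version. RMA aims to equalise arrays and compresses low values, and other steps are not given in the sources used here. The deposited arrays were not fully equal, with upper quartiles of 8.935 to 8.98 in controls and 8.996 to 9.048 in injected livers. No detection calls came with the values, and 6 arrays limit the precision.

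Of 22690 probe sets 64 were controls, 20380 had 1 gene symbol, 691 several and 1555 none. A gene took its brightest 1-symbol probe set by the mean over all arrays. Of the members, 5 are represented by a probe set with an x or s suffix, which can match related transcripts. limma (version 3.58.1, R 4.3.3) was fitted over 12393 genes without covariate or filter, with two-sided Benjamini-Hochberg adjusted p-values. Intervals are 95% intervals of the moderated fit (7.47 degrees of freedom). The labels call the arrays biological replicates.

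Values of every array are given for up to 4 members of smallest p in each role and for the catalytic subunits, their inducible counterparts and Psme1. Related lists name up to 3 called genes of smallest p. Summed marker levels are log2 of the sum of linear values. The promoters to print were chosen after the calls were seen. Members and lists were chosen with earlier results of these data known. The fit was tested on simulated data in which few genes changed, each by more than any called member here except Psmd8. That test does not bear on differences as small as those of the other called members. Alternatives are given in the closing section. Tables were made with pandas 2.3.3 and numpy 2.4.6 in Python 3.11.15, exact tests with scipy 1.17.1 and plots with matplotlib 3.10.9.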

Additional observations from a re-analysis of the deposited data

How the results depend on the processing

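The share of members called lay below that of all genes fitted in each of the 15 alternatives run. The gap was 0.54 percentage points with the mean of all probe sets (27.1% against 27.6%) and 1.61 when arrays were quantile normalised again. It was largest, 17.4 points, among the brighter genes, those at or above the median of mean levels (28.3% against 45.7%). In that alternative the fit and the p-value adjustment were run again on the brighter genes alone. The 40.2% given earlier for these genes counts calls adjusted over all 12393 genes. The 8 called members kept their sign in all alternatives, and none kept its call in all. Of all genes 1881 were called without variance moderation and 1973 to 4378 with 1 array left out. Members called numbered 4 without moderation, 13 each with array weights, after centring, after the repeated quantile step, with probe sets averaged and among the brighter genes, and 2 to 10 with 1 array left out. In the core they numbered 0 without moderation, 4 counting every probe set and 0 to 1 with 1 array left out. In the cap there were 10 among the brighter genes, of which 45.7% were called, and 10 with array weights (38.0% of all genes). With 1 array left out there were 1 to 8. Among activators and chaperones there was 1 among the brighter genes, with probe sets averaged, with every probe set and with array weights. There were 2 after centring and after the repeated quantile step, and 0 to 1 with 1 array left out. The shares of all genes in these settings are those given above. The member median was -0.15 after centring, which by its construction takes 0.07 from every difference, and -0.11 to -0.05 with 1 array left out.

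The p97 list of 13 had 5 called genes after centring and after the repeated quantile step. The COP9 list of 10 had 2 under those settings and counting every probe set, and 3 with array weights. Of all genes 32.2% were called after centring, 28.7% after the repeated quantile step, 31.8% counting every probe set and 38.0% with array weights. With 1 array left out, 15.9% to 35.3% of all genes were called. Called genes then numbered 2 to 6 among proteasome partners, 1 to 5 among regulators and 1 to 2 among ubiquitin and E1 genes. They numbered 2 to 3 in the p97 list, 0 to 2 in COP9 and 3 to 6 among chaperones. In class I processing they numbered 2 to 3 and in the interferon list 4 to 9. The cause of these changes was not tested. The within-array pairs ran from -0.36 to -0.02, 0.15 to 0.30 and 0.05 to 0.14 with 1 array left out.

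Groups share replicate numbers, but deviations of same-numbered arrays correlated at 0.14, 0.06 and 0.01 across genes and not every array correlated best with its own number, so the numbers were not taken as pairs. With replicate number as a block, 7 members, 3348 genes and 0 COP9 genes were called.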

Other observations

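The probe set that Psme2, the partner of Psme1 in the inducible activator, shares with Psme2b read 11.35, 11.21 and 11.21 in controls and 11.22, 11.35 and 11.22 in injected livers. The difference was 0.01 ± 0.07 (limma adjusted p = 0.937), and which of the 2 genes it measured cannot be told from it.

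Dim probe sets of Psma1 and Psma5 were lower and called (-0.40 and -0.42), at means of 6.001 and 5.567 in controls, while their brightest probe sets read -0.01 and -0.10.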
